A study of Mus musculus with 3 samples.

Results

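The S100 genes encode small calcium-binding proteins, and 7 of them are described here in liver immune cells of newborn mice: S100a8, S100a9, S100a4, S100a6, S100a10, S100a11 and S100a13. The members were taken by gene symbol from the 19059 genes measured, which held 17 genes of the S100 family in all. Cells were sorted as viable and positive for CD45, a surface protein that leukocytes share, from livers taken on postnatal day 0 after red cell lysis and a slow spin to remove hepatocytes. After fixation, RNA was read with gene-specific probes. The 3 libraries differed in Pex2, a gene needed to build working peroxisomes: 1 library was Pex2+/+ (labelled WT), 1 was Pex2-/+ (labelled Het) and 1 was Pex2-/- (KO). No other allele or agent is named, and the strain, the making of the null allele and the animals behind each library are not stated in the labels used here. With 1 library per genotype no difference could be tested, and every interval below covers counting error only.

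S100 proteins bind calcium through paired EF-hand loops, usually act as dimers, and bind partner proteins once calcium is bound. S100A8 and S100A9 pair as calprotectin, which fills the cytosol of neutrophils, is found in monocytes, sequesters zinc and manganese from microbes, and outside the cell signals through TLR4 and RAGE. S100A4, S100A6, S100A10 and S100A11 are linked to motility, membranes and annexins, and S100A13 takes part in the export of proteins that lack a signal peptide.

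Depth and the labels bear on what follows. The library labelled WT held 9600 barcodes with a median of 8218.5 UMIs, each of which stands for 1 molecule read, that labelled Het 8000 with 15558.5, and KO 8245 with 19348. Pex2 went against the order of the labels: it had 2283 UMIs (23.6 CPM, UMIs of a gene per 1000000 UMIs), 7704 UMIs (53.3 CPM) and 2 UMIs (0.0107 CPM) in the libraries labelled WT, labelled Het and KO. The control libraries are therefore named by their labels throughout, and values are given in this order. Ddx3y, a Y-linked gene, had 7956, 2 and 3 UMIs, so the library labelled WT also differed from the other two in sex-linked expression. No full barcode was shared between libraries, while droplet barcodes, without the part that marks the sample, were shared 1147 times between labelled WT and labelled Het, 1184 times between labelled WT and KO and 961 times between labelled Het and KO. Cells were grouped into 41 clusters without any S100 gene, and clusters were named from marker genes, so each class is a class of cells like the named type. KO cells stood apart from control cells in many of the neutrophil, monocyte and B-lineage clusters. Of the 743, 704 and 1193 monocyte-like cells, cluster 7 held 527, 397 and 0 and cluster 23 held 211, 260 and 30, whereas cluster 15 held 1, 32 and 604 and cluster 19 held 4, 15 and 559. Among B-lineage clusters, cluster 9 held 593, 302 and 8 cells and cluster 32 held 0, 5 and 314, whereas cluster 10 held 292, 230 and 363. Values within a class compare these different clusters. Ptprc, which encodes CD45, was at 249, 250 and 311 CPM with a UMI in 81.9%, 92.0% and 96.0% of barcodes, and Alb, the hepatocyte gene for albumin, was at 3.07, 3.10 and 3.48 CPM. Erythroid-like cells (126, 263 and 138) remained despite the lysis and the sort.

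All 7 members lie on chromosome 3 (GRCm38, GENCODE M21), as does Pex2 (5560188 to 5576239). S100a13 (90514435 to 90524581), S100a4 (90603771 to 90606045), S100a6 (90612882 to 90624181) and S100a8 (90668978 to 90670035) lie on the plus strand, S100a9 (90692632 to 90695721) follows on the minus strand, and S100a11 (93520488 to 93526287) and S100a10 (93555080 to 93564643) lie farther along on the plus strand. The starts of S100a8 and S100a9 are 26650 bases apart in the RefSeq table and the genes run towards each other. The 250 bases upstream of the start are printed for this pair, whose levels moved together across cell classes, and for S100a4, whose levels did not follow them. Each is given 5′ to 3′ on the strand of the gene, from RefSeq on GRCm38.p6, with capitals marking matches to any of 5 motifs searched on both strands.
S100a8, chr3:90668821-90669070, plus strand: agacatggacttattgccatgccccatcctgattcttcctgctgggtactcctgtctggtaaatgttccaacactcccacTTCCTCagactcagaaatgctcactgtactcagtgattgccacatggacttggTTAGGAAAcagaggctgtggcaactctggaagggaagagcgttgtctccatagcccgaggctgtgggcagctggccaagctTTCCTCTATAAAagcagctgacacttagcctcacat
S100a9, chr3:90695722-90695971, minus strand: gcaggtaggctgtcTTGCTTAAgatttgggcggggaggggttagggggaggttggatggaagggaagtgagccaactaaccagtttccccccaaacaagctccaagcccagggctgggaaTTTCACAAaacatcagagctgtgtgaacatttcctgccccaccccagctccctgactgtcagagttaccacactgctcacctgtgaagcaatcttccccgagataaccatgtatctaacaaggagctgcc
S100a4, chr3:90603520-90603769, plus strand: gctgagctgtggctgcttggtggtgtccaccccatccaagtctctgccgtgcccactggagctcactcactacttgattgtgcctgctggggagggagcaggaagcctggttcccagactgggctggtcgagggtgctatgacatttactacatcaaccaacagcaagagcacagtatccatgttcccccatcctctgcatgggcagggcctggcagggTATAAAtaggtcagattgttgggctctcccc
The S100a8 window held 1 TATA box (TATAAA), 1 match to a C/EBP motif (TTNNGNAA) and 2 to GAGGAA, a core bound by PU.1 and other ETS factors. The match to GAGGAA nearest the start abuts the TATA box, so both read as 1 run of capitals. The S100a9 window held 2 C/EBP matches and none of the other motifs, and the S100a4 window held a TATA box only. Of all 32851 windows of this length, 36.8% held a C/EBP match, 23.3% GAGGAA and 12.4% TATAAA, so each match is common. The AP-1 motif TGANTCA (6.75% of windows) and the STAT motif TTCNNNGAA (7.02%) matched none of the 3 printed windows. Of the 6 members in the promoter table, S100a11 had 2 AP-1 matches and 1 to GAGGAA, and S100a6 and S100a13 had no match. A match describes the letters only.

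S100a8 and S100a9 dominated the neutrophil lineage, and every other class lay far below it. In neutrophil-lineage-like cells, which numbered 5981, 4951 and 5355, S100a8 stood at 102686, 91216 and 100845 CPM. S100a9 stood at 94237, 95841 and 93269 CPM. Together the pair took 19.7%, 18.7% and 19.4% of all UMIs of the lineage. The 3 libraries lay close together: KO over labelled WT was 0.982 for S100a8 (0.981 to 0.983) and 0.990 for S100a9 (0.989 to 0.991), and KO over labelled Het was 1.11 and 0.973. Both ratios of S100a9 and that of S100a8 over labelled WT crossed 1 when class totals were scaled otherwise, with S100a8 over labelled WT between 0.928 and 1.06, so no direction is read from them. After each cell was thinned to 3000 UMIs, a UMI of S100a8 was found in 100% of neutrophil-lineage-like cells of each library. The lowest 10% of these cells lay below 84956, 70836 and 70765 CPM of S100a8, so the high level was shared across cells of the lineage.

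**Figure D1:**
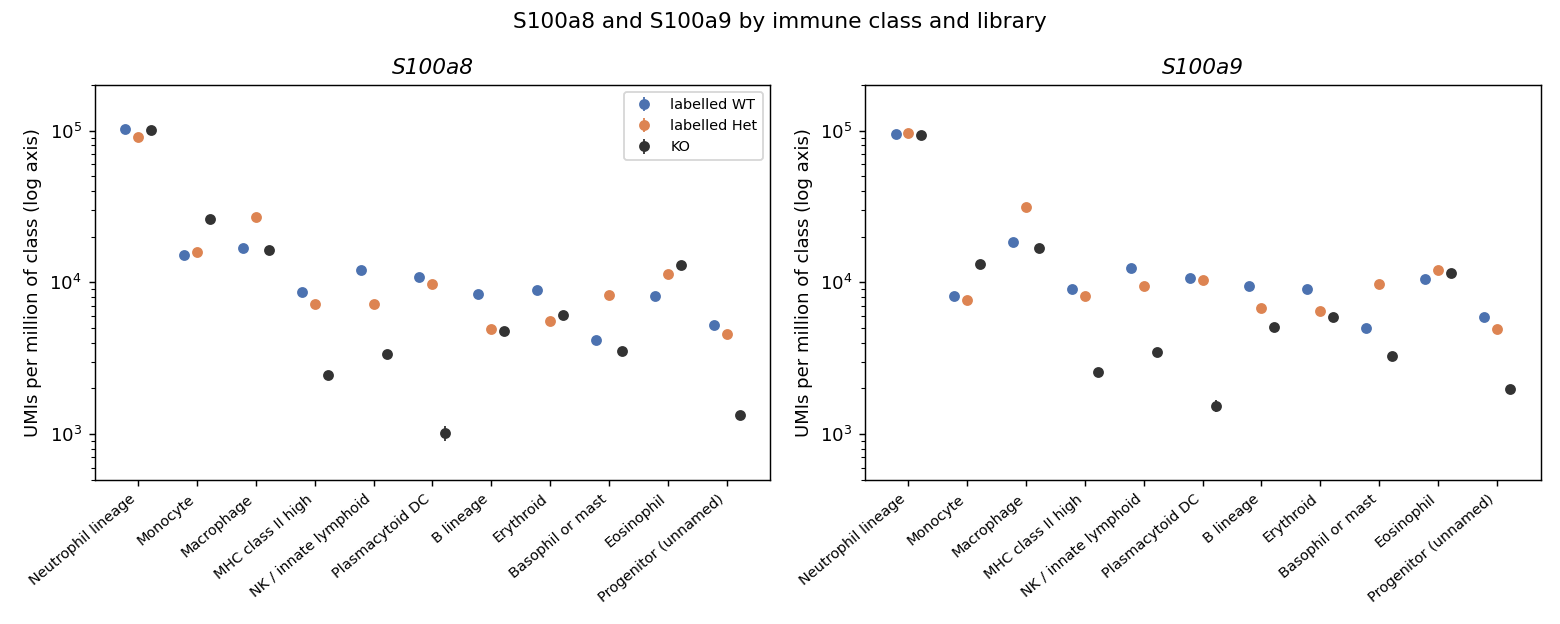
S100a8 (left) and S100a9 (right) in 11 immune classes, in CPM of the class on a log axis, with 1 point per library and 95% Poisson intervals, mostly smaller than the points. Neutrophil-lineage-like cells sit between 91216 and 102686 in all 3 libraries, and in monocyte-like cells the KO point (26101 and 13101) lies above both others.

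Outside the neutrophil lineage, UMIs of S100a8 and S100a9 may include free RNA, which droplets can take up from lysed cells. The source of these UMIs was not tested. B-lineage-like cells, a lymphoid class that does not make granule proteins, gave the level used as background. They held S100a8 at 8357, 4912 and 4796 CPM and S100a9 at 9420, 6717 and 5055 CPM. As a share of the neutrophil level in the same library, this was 8.14%, 5.38% and 4.76% for S100a8 and 10.0%, 7.01% and 5.42% for S100a9. Neutrophil granule genes were present at shares of a like size. Ngp, a neutrophil granule protein gene, was at 9.67%, 5.84% and 3.88% of its neutrophil level, Camp (cathelicidin) at 8.75%, 5.24% and 3.93%, Ltf (lactoferrin) at 9.33%, 6.22% and 4.06%, and Lcn2 (lipocalin 2) at 9.52%, 6.44% and 4.73%. All 6 shares were highest in the library labelled WT and lowest in KO, whose B-lineage-like cells had median depths of 4097 and 5598.5 UMIs. In every library the share of S100a9 lay above those of Ngp, Camp, Ltf and Lcn2 beyond counting error. The share of S100a8 lay above Ngp, Camp and Ltf in KO, but below Ngp, Ltf and Lcn2 in both control libraries. With called doublets kept the order turned, with KO the highest: S100a8 was then at 16.6%, 14.7% and 22.2% and S100a9 at 18.3%, 16.3% and 23.0%.

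A large part of this background sat in a few cells. B-lineage cluster 33, with 109, 79 and 118 cells and medians of only 1749, 1259 and 1031.5 UMIs, held S100a8 at 61920, 53306 and 39794 CPM. Without that cluster S100a8 in the class was 4.77%, 2.71% and 2.10% of the neutrophil level, and S100a9 6.68%, 4.19% and 2.77%. In the median B-lineage-like cell S100a9 was at 3813, 2566 and 2170 CPM and S100a8 at 1332, 953 and 1550 CPM. In summed counts the ratio of S100a8 to S100a9 was 0.887, 0.731 and 0.949 in B-lineage-like cells and 1.09, 0.952 and 1.08 in the neutrophil lineage. The pair was thus not in the neutrophil proportion there, and single clusters could depart further. Cluster 9 (593, 302 and 8 cells) had 3873, 1339 and 2336 CPM of S100a8 beside 6534, 3711 and 3543 CPM of S100a9. In cluster 18 of KO (28 cells) S100a8 lay above S100a9, at 2321 and 2115 CPM. A UMI of S100a8 was found in 91.1%, 89.7% and 95.5% of B-lineage-like cells thinned to 3000 UMIs, and of S100a9 in 99.6%, 97.7% and 98.3% (98.2%, 99.5% and 99.8% for S100a8 before thinning), so a UMI of either gene does not mark a cell type here.

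Macrophage-like cells had S100a8 at 16906, 27001 and 16357 CPM, second to neutrophils in both control libraries but below monocyte-like cells in KO, and S100a9 at 18406, 31566 and 16876 CPM. They also held granule genes. S100a8 was at 16.5%, 29.6% and 16.2% of the neutrophil level, Ngp at 19.9%, 29.3% and 18.5%, and Camp at 19.0%, 28.8% and 19.7%. The 7 granule-stage markers together were at 19.2%, 29.3% and 18.6%, and none was at 0. The library labelled Het was the highest for S100a8, S100a9, Ngp and Camp alike, and S100a8 lay at about the same percent as the granule genes. Monocyte-like and macrophage-like cells overlapped in S100a8, with ranges over libraries of 15015 to 26101 and 16357 to 27001 CPM. Plasmacytoid dendritic-like cells showed the widest spread: S100a8 was at 10800, 9790 and 1013 CPM, and the 7 granule-stage markers moved with it, at 10.1%, 11.8% and 0.679% of their neutrophil level. Their part in each S100a8 value was not tested.

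**Figure D2:**
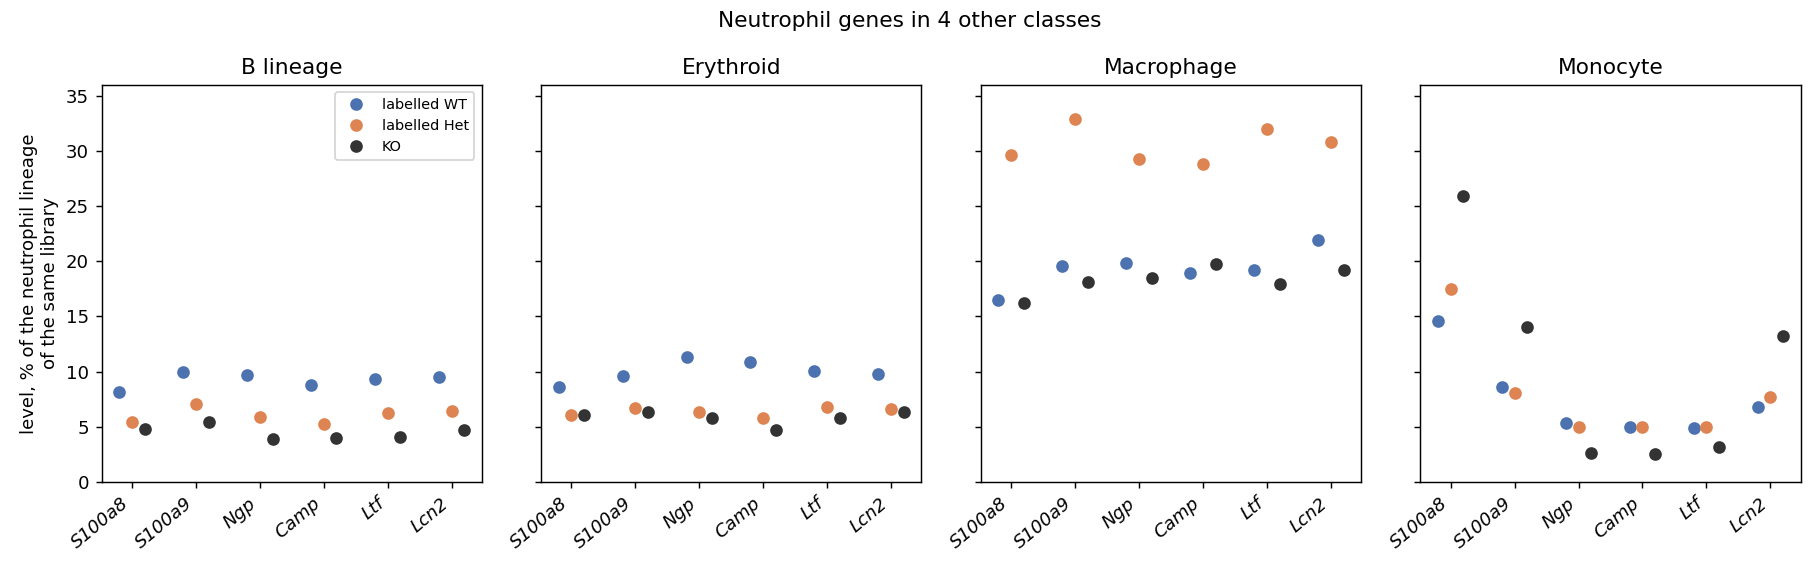
S100a8, S100a9 and 4 neutrophil granule genes in 4 other classes, each as a percent of the level in the neutrophil lineage of the same library. In B-lineage-like, erythroid-like and macrophage-like cells the 6 genes lie at like heights within a library, while in monocyte-like cells S100a8 (14.6%, 17.5% and 25.9%) lies far above Ngp (5.37%, 4.97% and 2.63%), with Lcn2 (6.74%, 7.71% and 13.3%) between them.

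In monocyte-like cells S100a8 and S100a9 were higher in KO than in either control library. S100a8 was at 15015, 15936 and 26101 CPM, 1.74-fold higher in KO than in the library labelled WT (1.73 to 1.75) and 1.64-fold higher than in that labelled Het (1.63 to 1.64). S100a9 was at 8072, 7683 and 13101 CPM, with ratios of 1.62 (1.61 to 1.63) and 1.71 (1.70 to 1.72). The background in B-lineage-like cells was 9420, 6717 and 5055 CPM of S100a9. The labelled WT value in monocyte-like cells thus lay below it, and the labelled Het value lay little above it. The control libraries lay close together, with labelled Het over labelled WT at 1.06 for S100a8 and 0.952 for S100a9, and KO stood apart. A member was called where its mean was at least 10 CPM with at least 30 UMIs, KO lay past both other libraries by at least 1.5-fold on the same side, and both intervals left out 1. By this rule 2 of the 7 members tested were called higher in monocyte-like cells and 0 lower, beside 5.32% of all 8540 genes tested called higher and 9.44% lower. At 2-fold 0 members were called. Against the library labelled WT alone 3 members passed (S100a4 besides, 12.9% of all genes), and against that labelled Het alone the same 2 passed (6.48%).

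The difference was also seen in the median cell. The median monocyte-like cell had 8085, 9403 and 26820 CPM of S100a8 and 2038, 1575 and 4476 CPM of S100a9. The lowest 10% of cells lay below 598, 540 and 710 CPM of S100a8 in each library, and the highest 10% lay above 41276, 38907 and 52834 CPM. Granule genes went the other way: Ngp in these cells was at 5.37%, 4.97% and 2.63% of its neutrophil level and Camp at 4.94%, 4.99% and 2.55%. The 7 granule-stage markers summed to 6331, 5645 and 2441 CPM, lower in KO for 6 of the 7, and none was at 0. Taking all Ngp in these cells as neutrophil RNA, with S100a8 at its neutrophil proportion to Ngp, leaves 9500, 11404 and 23453 CPM of S100a8 and 3011, 2921 and 10652 CPM of S100a9, and Camp or Ltf in place of Ngp leaves like values. That remainder depends on the gene chosen. With Lcn2, whose share was higher in KO (6.74%, 7.71% and 13.3%), it is 8098, 8900 and 12733 CPM of S100a8, 1.57-fold and 1.43-fold higher in KO, and 1725, 290 and 737 CPM of S100a9, where KO lies below labelled WT. With Mmp8, at 26.2%, 41.5% and 77.3%, the remainder is negative for both genes in every library. In the monocyte-like clusters without primary granule genes, described below, Mmp8 was at 60.2%, 83.0% and 153% of its neutrophil level. Its KO level there was above that of the neutrophil lineage taken as a whole, of which mature cells were only a part. The 7 mature neutrophil markers summed to 1441, 1127 and 2424 CPM. The higher sum in KO came with Mmp8, a neutrophil collagenase, at 321, 431 and 1738 CPM. Of the 7, 3 were higher in KO than in both control libraries and 4 were lower. Retnlg, which marks mature neutrophils, was among the latter, at 477, 205 and 138 CPM. Lcn2, like Mmp8 a granule gene, was at 826, 1310 and 3076 CPM. The part of these mature-neutrophil genes in the S100a8 difference was not tested.

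The pair had its own proportion in monocyte-like cells. The ratio of S100a8 to S100a9 was 1.86, 2.07 and 1.99 there, against 1.09, 0.952 and 1.08 in the neutrophil lineage. The probes of the 2 genes differ, so only the change of this ratio between classes can be read. Monocyte-like cells fell into clusters with primary granule genes (528, 429 and 604 cells) and clusters without them (215, 275 and 589 cells). In the clusters with them, S100a8 was at 14790, 16279 and 25195 CPM and S100a9 at 8014, 7960 and 13660 CPM. In those without, S100a8 was at 16220, 14764 and 28180 CPM and S100a9 at 8387, 6734 and 11817 CPM. KO lay above both controls in each subset, with 3 members called in the first (S100a4 besides; 4.51% of genes called higher, 8.87% lower) and 1 in the second (S100a8; 11.1% higher, 9.80% lower), where S100a9 was 1.41-fold above labelled WT and so missed the size needed. Median depths were 13642, 22371.5 and 26157 UMIs. Over 7 alternatives, thinning among them, S100a8 in KO was 1.77 to 1.83 times the labelled WT value and 1.66 to 1.73 times the labelled Het value.

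**Figure D3:**
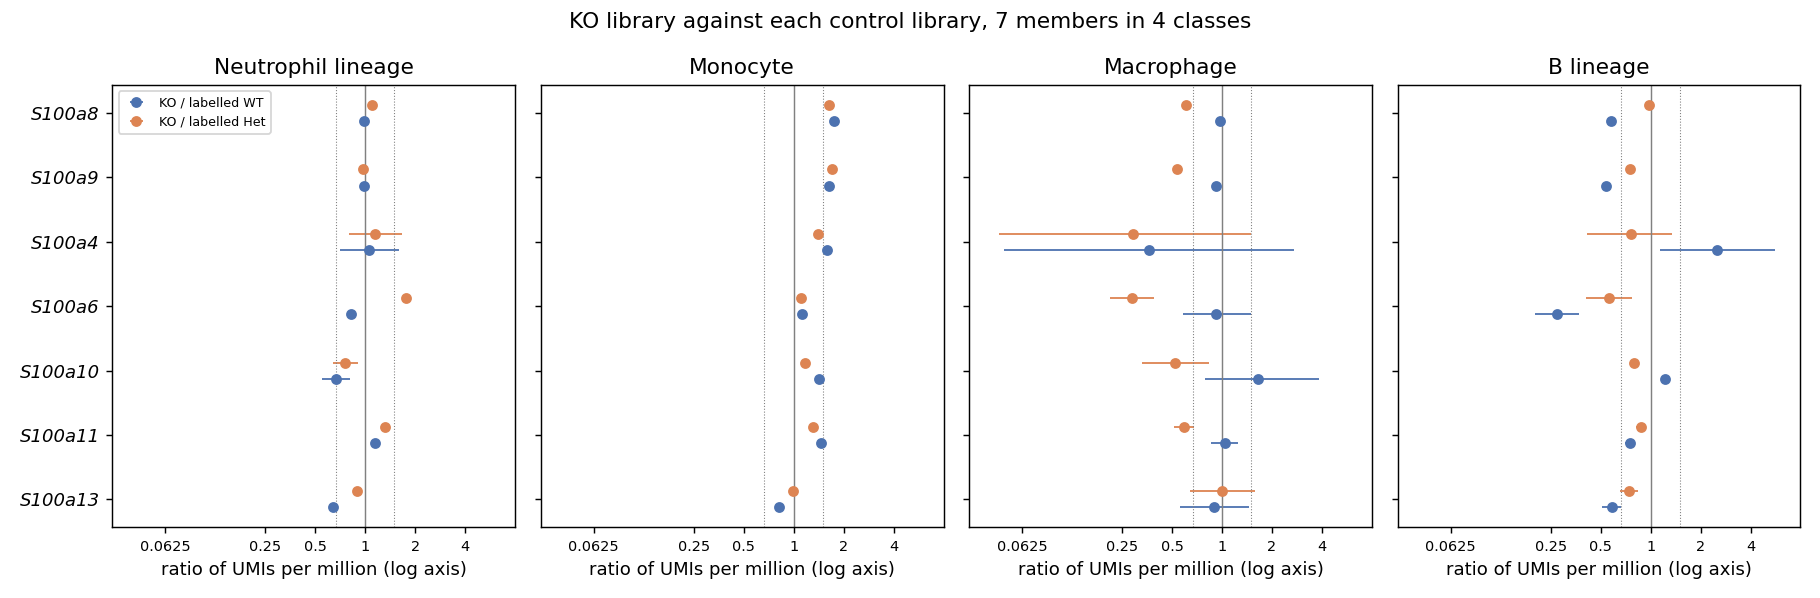
KO over labelled WT (blue) and KO over labelled Het (orange) for the 7 members in 4 classes, as ratios of CPM on a log axis with 95% intervals that cover counting error only; dotted lines mark 1.5-fold in each direction. In monocyte-like cells S100a8 and S100a9 lie past the line in both comparisons, while in the neutrophil lineage both lie near 1.

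Within the neutrophil lineage, S100a8 and S100a9 climbed from the earliest stage to the granule stages in every library, and the libraries parted at the 2 ends. Stages were gated in single cells from primary granule genes (such as Elane and Mpo), secondary granule genes (such as Ngp and Camp), mature markers and division genes. Cells with primary granules only (180, 191 and 91) had S100a8 at 33082, 36458 and 47315 CPM and S100a9 at 26267, 32584 and 36220 CPM. Cells with both granule sets (122, 117 and 126) already had S100a8 at 83648, 81671 and 85626 CPM. Dividing granule-stage cells (1567, 1780 and 2325) had 102672, 93857 and 102242 CPM, and those not dividing (3390, 2381 and 2080) had 111915, 99518 and 108519 CPM. The first step was thus the widest. KO began it from the highest level of S100a8, 1.43-fold over labelled WT and 1.30-fold over labelled Het, and rose by the smallest factor. Neither gate of cells with primary granules had a member called, beside 5.01% of genes higher and 7.57% lower for cells with primary granules only and 4.28% and 6.52% for cells with both sets.

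In mature neutrophil-like cells (722, 482 and 733) KO was the lowest library for both genes. S100a8 was at 114023, 96035 and 88851 CPM there and S100a9 at 111875, 99838 and 80276 CPM. KO over labelled WT was 0.779 for S100a8 and 0.718 for S100a9, and over labelled Het 0.925 and 0.804, so neither was past 1.5-fold. From the primary granule gate to the mature gate S100a8 was 3.45-fold, 2.63-fold and 1.88-fold higher and S100a9 4.26-fold, 3.06-fold and 2.22-fold higher, in each case with KO the least. The marker content of a gate also differed between libraries: in the primary granule gate, the median summed level of primary granule genes was 99784, 85614 and 62875 CPM, and in the mature gate that of granule-stage genes was 10256, 2467 and 2384 CPM. Clusters with Retnlg or Il1b among their leading genes also split by library. Cluster 21 held 507, 30 and 0 cells, cluster 27 held 119, 293 and 6, cluster 28 held 0, 6 and 411, and cluster 8 held 0, 4 and 901. With libraries pooled, S100a8 in these clusters was at 116038, 71142, 57907 and 103609 CPM. Their part in the mature gate was not tested. Cuts 0.5 or 2 times as high each moved 10.9% of the lineage's cells to another gate, and with the higher cuts 2 members, in place of 0, were called lower in the mature gate.

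S100a6, known as calcyclin, was the most stage-bound member. It was at 15.5, 9.05 and 2.92 CPM in primary granule cells and 20.3, 14.1 and 10.2 CPM in cells with both granule sets. It was at 32.8, 26.6 and 73.6 CPM in dividing granule-stage cells, 332, 218 and 529 CPM in those not dividing, and 2088, 1424 and 991 CPM in mature cells. The direction of the KO difference depended on the stage. KO was 0.188 and 0.322 times the control values in primary granule cells, where the level was too low for a call. With both granule sets it was 0.504 and 0.724 times, the latter within counting error (0.492 to 1.07). KO was 2.24-fold (2.07 to 2.43) and 2.77-fold (2.60 to 2.96) higher at the dividing granule stage, 1.59-fold and 2.43-fold higher at the granule stage after division, and 0.474 and 0.696 times the control values in mature cells. S100a6 was the 1 member called higher of 5 tested in each granule-stage gate, beside 3.06% and 4.49% of all genes, and no member was called lower, beside 6.24% and 8.06%. The call after division ended with the higher cuts. In mature cells, where all 5 members tested lay lower in KO than in both control libraries, 0 were called lower, beside 5.44% of genes. Their median log2 ratio was -0.48 over labelled WT and -0.31 over labelled Het, while that of all genes tested in mature cells was 0.14 and 0.20. The mature markers moved with S100a6 in these gates: their median summed level was 1912, 1874 and 3071 CPM in dividing granule-stage cells and 11045, 9544 and 16429 CPM in those not dividing. Their part in the S100a6 difference was not tested. Over the whole lineage S100a6 was at 295, 138 and 243 CPM, so KO lay between the control libraries: 0.824 times labelled WT and 1.76 times labelled Het, past 1.5-fold against the latter alone (3.50% of genes higher).

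S100a11, which binds annexin A1, followed a like course without a call. It was at 572, 558 and 798 CPM in primary granule cells, 682, 699 and 954 CPM in cells with both granule sets, 696, 798 and 1079 CPM in dividing granule-stage cells and 1582, 1493 and 2136 CPM in those not dividing. KO was the highest of the 3 libraries in each of these gates, by 1.35-fold to 1.55-fold. In mature cells S100a11 was at 3628, 3677 and 3210 CPM, and KO was the lowest. Over the whole lineage it was at 1283, 1123 and 1469 CPM, and 0 of the 5 members tested there were called in either direction, beside 2.92% of genes higher and 6.57% lower.

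**Figure D4:**
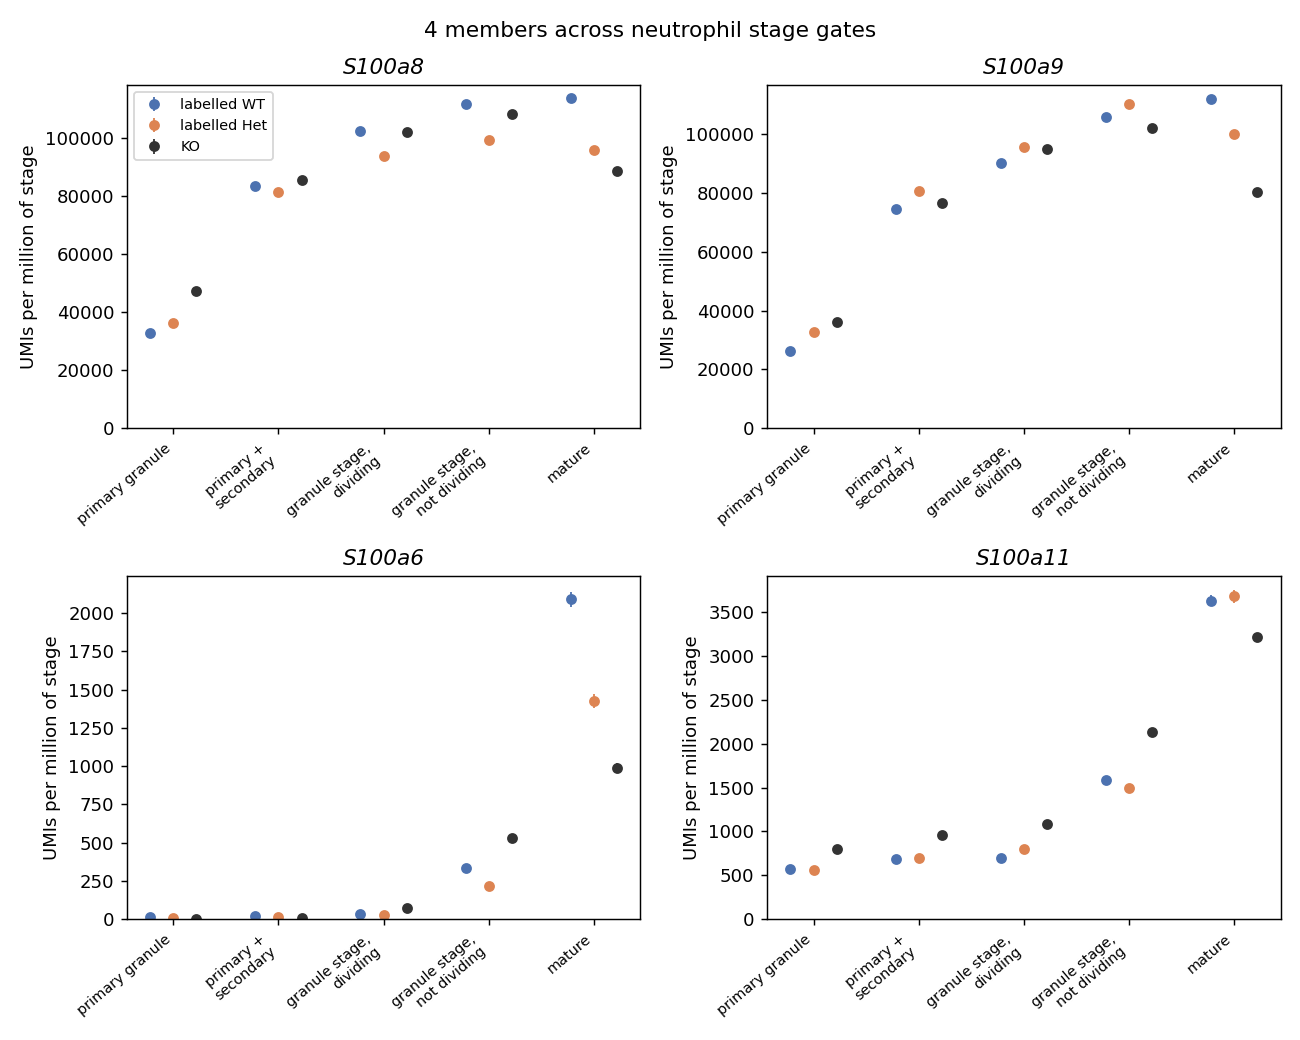
S100a8, S100a9, S100a6 and S100a11 in 5 stage gates of the neutrophil lineage, in CPM of the gate on linear axes that start at 0, with 1 point per library and 95% Poisson intervals. S100a8 and S100a9 level off at the granule stages, whereas S100a6 and S100a11 are highest in mature cells, where the KO points (991 and 3210) are the lowest of the 3.

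S100a4 and S100a10 were nearly absent from neutrophils and marked other classes. S100a4, a motility gene also called metastasin, was at 0.628, 0.574 and 0.661 CPM in the neutrophil lineage and at 325, 366 and 515 CPM in monocyte-like cells, 517-fold, 638-fold and 780-fold higher. S100a10, the partner of annexin A2, was at 3.21, 2.81 and 2.13 CPM in the neutrophil lineage and at 944, 1136 and 1333 CPM in monocyte-like cells, 294-fold, 404-fold and 625-fold higher. A UMI of S100a4 was found in 0.205%, 0.186% and 0.306% of neutrophil-lineage-like cells after thinning to 3000 UMIs and in 42.5%, 45.1% and 51.1% of monocyte-like cells. These 2 genes thus have almost no neutrophil background, unlike S100a8 and S100a9.

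Natural killer and innate lymphoid-like cells, with only 17, 48 and 59 cells, had the highest S100a4, at 1325, 1800 and 1263 CPM, above the ranges of all other classes. MHC class II high cells (405, 418 and 477 CPM) and monocyte-like cells overlapped. For S100a10 the natural killer and innate lymphoid-like cells (1015, 1396 and 1965 CPM), the MHC class II high cells (1015, 1236 and 1406 CPM) and the monocyte-like cells overlapped over libraries. Basophil or mast-like cells had 922, 751 and 784 CPM of S100a10 with little S100a4 (4.03, 0.561 and 11.5 CPM). B-lineage-like cells had 300, 466 and 369 CPM of S100a10 with 1.14, 3.72 and 2.84 CPM of S100a4, so the 2 genes parted in these classes. Macrophage-like cells were low in both, at 15.0, 47.3 and 24.7 CPM of S100a10 and 5.00, 6.22 and 1.81 CPM of S100a4.

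S100a4 in monocyte-like cells differed more between subsets than between libraries. It was at 213, 177 and 348 CPM in the clusters with primary granule genes and at 924, 1015 and 898 CPM in those without. In the first subset KO was 1.63-fold and 1.97-fold higher than the controls, and in the second 0.973 and 0.885 times. S100a6 was likewise higher in the second subset, at 884, 883 and 742 CPM against 273, 226 and 274 CPM. Over all cells S100a4 was at 51.0, 65.4 and 109 CPM and was the 1 member of 7 called higher, beside 2.73% of genes called higher and 13.7% lower, and the share of monocyte-like cells, 7.97%, 9.01% and 15.0% of cells, moved with it. Its part in that difference was not tested. In a cluster with Mpo and Ctsg among its leading genes, left unnamed (211, 239 and 43 cells), S100a4 was at 17.8, 58.7 and 247 CPM and S100a10 at 316, 392 and 727 CPM, with KO the highest of the 3 but resting on 43 cells.

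**Figure D5:**
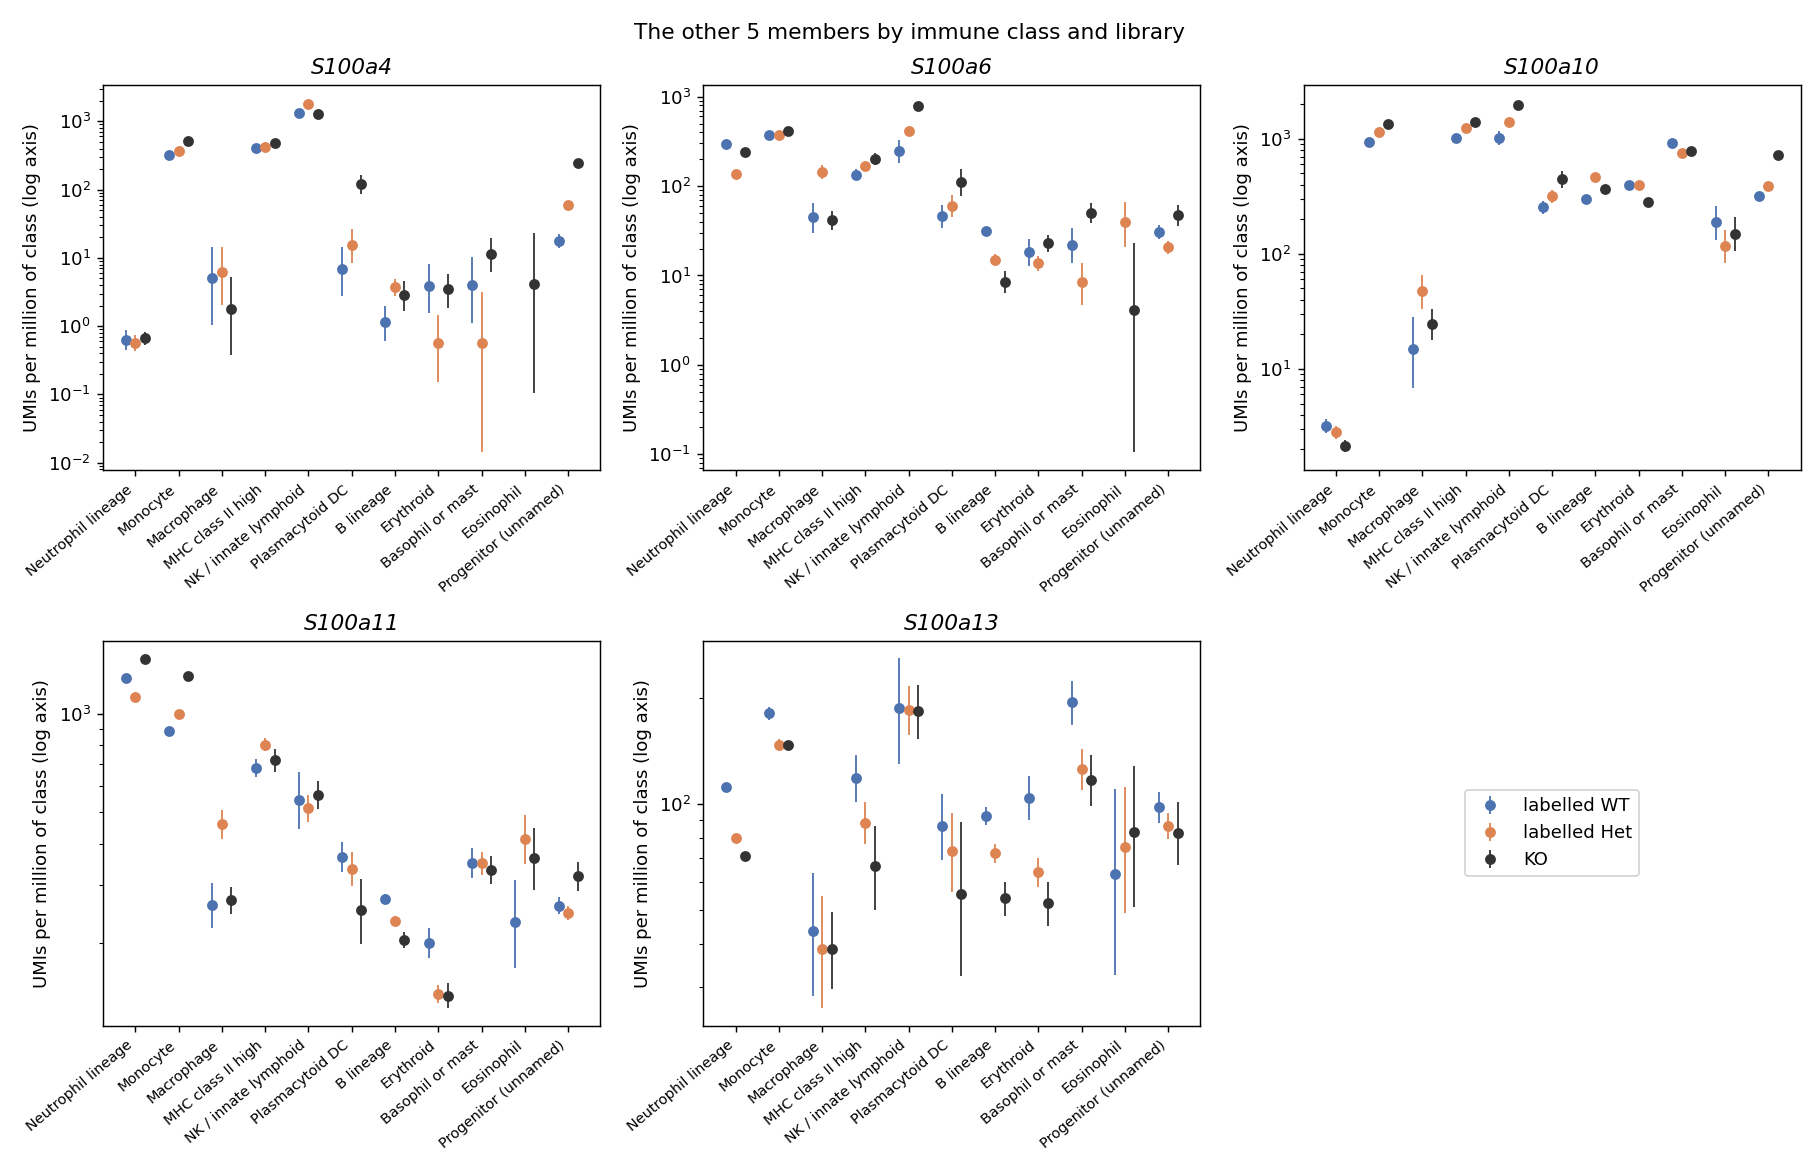
S100a4, S100a6, S100a10, S100a11 and S100a13 in 11 immune classes, in CPM of the class on log axes that differ between panels, with 1 point per library and 95% Poisson intervals; values of 0 (S100a4 and S100a6 in eosinophil-like cells) are not drawn. S100a4 and S100a10 are lowest or nearly so in the neutrophil lineage, and S100a11 is highest there.

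UMIs of S100a11 were found in every class, from 138 to 200 CPM in erythroid-like cells to 1123 to 1469 CPM in the neutrophil lineage. In macrophage-like cells S100a11 was at 20.3%, 40.9% and 18.4% of its neutrophil level, where Ngp was at 19.9%, 29.3% and 18.5%. In erythroid-like cells it was at 15.6%, 12.4% and 9.39%, above Ngp at 11.3%, 6.33% and 5.82%. The part of neutrophil RNA in these values was not tested. In monocyte-like cells S100a11 was at 887, 994 and 1305 CPM, 1.47-fold and 1.31-fold higher in KO, and S100a10 was 1.41-fold and 1.17-fold higher, both short of the size needed. The monocyte range of S100a11 overlapped that of the neutrophil lineage. S100a6 in monocyte-like cells was even, at 369, 375 and 416 CPM. In natural killer and innate lymphoid-like cells S100a6 was at 246, 415 and 794 CPM, with KO the highest of the 3 libraries and 17 cells behind the labelled WT value.

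In the smaller classes more calls were made, from few UMIs or cells. S100a6 in basophil or mast-like cells (72, 74 and 57 cells) was at 22.2, 8.42 and 50.1 CPM and was called higher in KO, a call that ended with the per-cell gate and with thinned cells, and S100a9 there was at 4976, 9762 and 3270 CPM and was called lower, beside 8.01% of genes called higher and 5.58% lower. The granule-stage markers in that class were at 4.92%, 10.6% and 2.55% of their neutrophil level and moved with S100a9; their part in it was not tested. S100a6 in B-lineage-like cells was at 31.1, 15.1 and 8.52 CPM, the 1 member of 6 called lower, beside 11.9% of genes lower and 9.47% higher, and it was at 10.6%, 10.97% and 3.51% of its neutrophil level, where Ngp was at 9.67%, 5.84% and 3.88%. With called doublets kept, that ratio turned to 1.49 over labelled WT and 2.85 over labelled Het. In macrophage-like and erythroid-like cells 0 of 6 members were called, beside 9.29% and 6.96% of genes higher and 5.95% and 9.55% lower.

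All 7 members were tested in 4 further small classes, and S100a8 and S100a9 were called lower in each of them. Granule-stage markers were lower with them, and their part was not tested. In MHC class II high cells (98, 117 and 39) S100a8 was at 8624, 7165 and 2445 CPM and the granule-stage markers at 9.50%, 7.60% and 2.29% of their neutrophil level, with 2 members called lower and 0 higher, beside 6.81% of genes lower and 8.17% higher. In natural killer and innate lymphoid-like cells (17, 48 and 59) S100a8 was at 12111, 7166 and 3377 CPM and the markers at 12.3%, 8.88% and 2.56%. S100a6 was called higher there, so 2 members were lower and 1 higher, beside 6.12% and 5.46% of genes. In plasmacytoid dendritic-like cells (100, 45 and 23) S100a4, at 6.97, 15.7 and 120 CPM, and S100a6, at 45.8, 60.2 and 111 CPM, were called higher, so 2 members were higher and 2 lower, beside 7.97% and 9.40% of genes. In the unnamed cluster with Mpo and Ctsg (211, 239 and 43 cells), with the markers at 5.87%, 4.98% and 1.72%, S100a4, S100a10 and S100a6, the last at 30.5, 20.6 and 46.9 CPM, were called higher, beside 8.38% of genes, and the 2 lower members stand beside 6.72%.

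S100a13 was lower in KO than in the library labelled WT in every class except eosinophil-like cells, though in some small classes by less than the counting error. In the neutrophil lineage it was at 112, 79.9 and 71.0 CPM, 0.636 times labelled WT (0.616 to 0.657) and 0.889 times labelled Het. In B-lineage-like cells it was at 92.4, 72.3 and 53.8 CPM, and in erythroid-like cells at 104, 63.8 and 52.1 CPM. In monocyte-like cells it was at 181, 147 and 147 CPM, and in natural killer and innate lymphoid-like cells at 187, 185 and 184 CPM. Against the library labelled WT alone S100a13 in the neutrophil lineage was past 1.5-fold (13.5% of genes lower), but the library labelled Het lay nearer to KO, and no call was made for S100a13 in any of the 6 main classes.

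Of the 10 other S100 genes measured, only S100a1, known from cardiac muscle, reached 10 CPM in a class. S100a1 was at 123, 116 and 124 CPM in monocyte-like cells, and at 295, 250 and 268 CPM in primary granule neutrophils against 1.45, 0.799 and 4.37 CPM in mature cells, the reverse of S100a6. In erythroid-like cells it was at 116, 87.7 and 38.5 CPM and was lower in KO by the same rule, as it was in basophil or mast-like cells at 77.6, 78.6 and 38.6 CPM.

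Partner genes were read from 4 lists in the neutrophil-lineage-like, monocyte-like, macrophage-like and B-lineage-like cells. Of 8 transcription factors known at S100a8 and S100a9, 6 were tested in monocyte-like cells, 0 were called higher and 2 lower, beside 5.32% and 9.44% of all genes. Cebpb, a C/EBP factor of myeloid cells, was at 2312, 2051 and 839 CPM and Cebpd, another C/EBP factor, at 571, 419 and 232 CPM, so both were lower in the library where S100a8 and S100a9 were higher. The list's median log2 ratio in these cells, KO over labelled WT, was -0.30 beside -0.05 over all genes, and over labelled Het it was -0.39 beside -0.02. In the neutrophil lineage 8 were tested and 0 called. In macrophage-like cells (7 tested) and B-lineage-like cells (6 tested) Cebpd was called lower, at 439, 409 and 152 CPM and at 67.5, 25.04 and 15.5 CPM, beside 5.95% and 11.9% of genes called lower in these classes. In B-lineage-like cells Cebpd was at 10.1%, 5.22% and 4.82% of its neutrophil level, near the shares of Ngp and S100a8 there, and in macrophage-like cells at 65.5%, 85.4% and 47.2%, above Ngp.

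Of 10 receptors and co-receptors of S100A8 and S100A9, 8 were tested in monocyte-like cells, and 1 was called lower and 0 higher, beside 9.44% and 5.32% of genes. This was Myd88, the adaptor below TLR4, at 328, 309 and 174 CPM. Tlr4 itself, a receptor for calprotectin, was at 40.6, 42.7 and 36.5 CPM there, at 17.6, 26.2 and 19.7 CPM in the neutrophil lineage and at 137, 111 and 117 CPM in macrophage-like cells, and was not called in any of them. Ager, which encodes RAGE, was at 15.6, 9.80 and 13.5 CPM in monocyte-like cells and at 51.7, 26.1 and 19.3 CPM in macrophage-like cells. In macrophage-like cells Cd14, the co-receptor of TLR4, was at 1162, 1422 and 4034 CPM and was called higher, 3.47-fold and 2.84-fold, and Bsg (basigin), a receptor of S100A9, was at 140, 179 and 80.6 CPM and was called lower, with 8 tested and 9.29% of all genes higher and 5.95% lower. In the neutrophil lineage 7 were tested and Alcam, a cell adhesion molecule, was called higher at 7.14, 14.6 and 22.2 CPM, beside 2.92% of genes. In B-lineage-like cells 7 were tested and 0 called.

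Of 12 annexins and other partners of S100A4, S100A6, S100A10 and S100A11, 9 were tested in the neutrophil lineage and 10 in monocyte-like cells, and 0 were called in either, beside the 2.92% and 5.32% of genes higher and 6.57% and 9.44% lower. Anxa2, the partner of S100A10, was at 528, 480 and 737 CPM in the neutrophil lineage, where S100a10 was nearly absent, and at 1180, 1333 and 1446 CPM in monocyte-like cells. Anxa1, a partner of S100A11, was at 5414, 5216 and 3946 CPM in the neutrophil lineage and at 763, 807 and 771 CPM in monocyte-like cells. Anxa1 was called lower in macrophage-like cells (10 tested) at 1112, 1617 and 650 CPM and in B-lineage-like cells (9 tested) at 560, 364 and 172 CPM, beside 5.95% and 11.9% of genes. These levels were 20.5%, 31.0% and 16.5% and 10.4%, 6.98% and 4.35% of the neutrophil level, near the shares of Ngp in the same classes (19.9%, 29.3% and 18.5%, and 9.67%, 5.84% and 3.88%).

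Of 10 genes of release and secretion, Padi4, the enzyme that citrullinates histones in neutrophil extracellular traps, was the only one called in all 4 classes. It was lower in KO in the neutrophil lineage, at 342, 266 and 142 CPM, where 9 were tested and 6.57% of all genes were called lower. In monocyte-like cells (10 tested) Padi4 was at 22.7, 11.5 and 4.35 CPM and Alox5, the leukotriene-forming lipoxygenase, at 51.2, 34.2 and 17.4 CPM. In macrophage-like cells (10 tested) Padi4, at 61.7, 103 and 23.5 CPM, and Nlrp3, an inflammasome sensor, at 122, 84.6 and 54.8 CPM, were called lower. In B-lineage-like cells (9 tested) Padi4, Alox5 and Pla2g4a, a cytosolic phospholipase, were called lower, and Casp1, the inflammasome protease, was called higher at 13.5, 13.9 and 27.9 CPM. The shares of all genes called lower were 9.44%, 5.95% and 11.9% in these 3 classes, and 9.47% were called higher in the last. Padi4 was highest in the neutrophil lineage, and in the other 3 classes it lay near the shares of Ngp, somewhat above them in macrophage-like cells of the library labelled Het, at 6.65%, 4.34% and 3.06% of the neutrophil level in monocyte-like cells, 18.0%, 38.8% and 16.5% in macrophage-like cells and 11.1%, 7.16% and 3.18% in B-lineage-like cells. Alox5 in B-lineage-like cells was likewise at 9.36%, 5.13% and 3.74%, while Pla2g4a there, at 35.4%, 32.0% and 13.1%, lay above Ngp. The part of free neutrophil RNA in these calls was not tested.

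The genes most like each member were sought among 9324 genes by Pearson's r of log2(CPM + 10) over 18 points. The points were 6 classes in each of 3 libraries. Points of 1 library share its background and depth, so r is a description. The genes most alike were Mapk13, Chil1 and C3 for S100a8 (r of 0.975, 0.973 and 0.969) and Pram1, Mapk13 and Cstdc4 for S100a9 (0.988, 0.981 and 0.979). For S100a4 they were Fn1, Vcan and Sh2d1b1 (0.981, 0.976 and 0.972), for S100a6 Gda, Map2k1 and Pira2 (0.959, 0.953 and 0.949), and for S100a10 Nt5c, Ufc1 and Nme2 (0.955, 0.951 and 0.935). For S100a11 they were Mtus1, Mgst1 and Mapk3 (0.967, 0.961 and 0.961), and for S100a13 Kctd20, Vim and Emp3 (0.946, 0.900 and 0.890). Among the members, S100a8 and S100a9 were the most alike (0.960), then S100a6 and S100a11 (0.898), and S100a9 and S100a10 ran opposite (-0.867).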

How the data were processed

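RNA of CD45+ cells sorted from livers of postnatal day 0 mice, 1 library per Pex2 genotype, was read with a probe-based kit for fixed cells. The authors deposited raw UMI counts per gene and barcode, made with Cell Ranger 7.0.0 on mm10, per the submitters' processing notes. Probe positions and barcode filters are not stated in the labels used here. Libraries held 96629431, 144589956 and 186295183 UMIs (labelled WT, labelled Het, KO).

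Doublets (273, 186 and 298 barcodes) were called with Scrublet and left out, which kept 9327, 7814 and 7947 cells. Cells were clustered in scanpy 1.11.5 (Leiden resolution 2, 2000 variable genes without S100, sex-linked and Pex2 genes, 40 components, 20 neighbours) and named from marker lists without S100 genes. The cell gate by markers alone held 86.9% of the neutrophil, 95.1% of the monocyte, 91.7% of the macrophage and 82.1% of the B-lineage cluster cells. UMIs were summed per library and class and divided by the class total (CPM), with exact 95% Poisson intervals for levels and exact conditional binomial intervals for ratios. With 1 library per genotype there is no test. A gene was called by the rule of size given with the monocyte result. Stages were gated at 10000 CPM of primary granule genes and 1000 CPM of division genes. Shares of cells were taken after thinning each cell to 3000 UMIs, which left out cells with fewer. Alternative scalings came from edgeR 4.0.16 and DESeq2 1.42.0. The call rule was run on simulated counts drawn from 1 shared profile with known changes and counting error only. Such counts hold no variation between animals or libraries, so they cannot show how often that variation alone gives a call.

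All 7 members were described. Of the partner lists, genes called in a class were named, with Tlr4, Ager, Anxa1 and Anxa2 in any case. The members, the lists and this rule were chosen with earlier results of these data known. Upstream sequences came from the RefSeq promoter table, which held 6 of the 7 members. The start used there for S100a8 lies downstream of the GENCODE start. Levels of different genes are not compared, since their probes differ.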

Additional observations from a re-analysis of the deposited data

Results flagged for a closer look

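KO over labelled Het pointed in different directions in different classes for S100a9. The ratio was 1.71 in monocyte-like cells, 0.753 in B-lineage-like cells and 0.335 in basophil or mast-like cells. KO lay on the same side of both control libraries in each of the 3 classes.

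S100a6 also differed in direction. KO over labelled Het was 0.564 in B-lineage-like cells and 5.95 in basophil or mast-like cells. Within the neutrophil lineage it was 2.77 at the dividing granule stage, 2.43 at the granule stage after division and 0.696 in mature cells. With 1 library per genotype, none of these differences between classes or stages was tested.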

How the results depend on the processing

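No paired analysis was possible because each genotype had 1 library and the libraries share only 1 replicate number. Over alternatives in clustering gate, doublets, thinning, scaling, filter and fold, 133 of 174 counts of called genes stayed within 1.5 times the reported count and 41 did not. Of 70 ratios of called members, 35 moved past the counting interval and 2 reversed, and of all 586 ratios 262 moved and 57 lay on the other side of 1. With 2-fold needed, 0 members were higher in monocyte-like cells, and 0 were lower in B-lineage-like and in basophil or mast-like cells. With called doublets kept, 1 member was higher in macrophage-like and 1 in erythroid-like cells, 0 were lower in B-lineage-like cells, and S100a6 there reversed to 1.49 over labelled WT and 2.85 over labelled Het. With a per-cell gate, 2 members were higher in macrophage-like cells, and in basophil or mast-like cells 0 were higher and 2 lower. With thinned cells, 2 were lower in B-lineage-like cells, and in basophil or mast-like cells 0 were higher and 2 lower. In the neutrophil lineage 1 member was lower against the library labelled WT alone and 1 higher against that labelled Het alone, a comparison chosen after seeing the data. With higher stage cuts, 0 were higher at the granule stage after division and 2 lower in mature cells.

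S100a8 in B-lineage-like cells as a percent of the neutrophil lineage (labelled WT, labelled Het, KO) was 6.66, 4.95 and 4.53 with the per-cell gate, 16.6, 14.7 and 22.2 with doublets kept, and 4.77, 2.71 and 2.10 without the shallowest cluster, an alternative also chosen after seeing the data. S100a9 was 8.45, 6.38 and 5.15, then 18.3, 16.3 and 23.0, then 6.68, 4.19 and 2.77. With a minimum of 1 CPM, more genes entered the lists. Receptors higher in the neutrophil lineage were then 2, lower in monocyte-like cells 2, and in B-lineage-like cells 1 higher and 1 lower. Annexins and other partners higher were 1 in the neutrophil lineage and 1 in B-lineage-like cells, and transcription factors lower in B-lineage-like cells were 2. For the other settings the cause was not tested.

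Leaving out a replicate left no library for its genotype. Sequencing depth was lowest in the library labelled WT, and values in small classes rest on few cells. Camp, Ltf, Lcn2 or Mmp8 in place of Ngp as the measure of neutrophil RNA in monocyte-like cells was also chosen after seeing the data.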
